A study of Mus musculus with 12 samples.

Results

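The genes described here were 10 markers of mural cells, the cells that wrap blood vessels: Pdgfrb, Notch3, Rgs5, Vtn, Anpep, Higd1b, Acta2, Tagln, Myh11 and Des. They were taken by symbol from the deposited gene count table, and each symbol matched 1 of its 45906 rows. All 10 passed the filter on low counts. The table holds poly(A) RNA-seq of whole spinal cord from mice of 7 months on a C57BL/6 background, with 4 genotypes and 3 mice each. The groups were Plekhg5+/+ mice (WT in the labels), Plekhg5-/- mice (Plekhg5 KO), Plekhg5+/+ mice that carried the SOD1-G93A transgene (SOD1-G93A), and Plekhg5-/- mice with that transgene (Plekhg5 KO SOD1-G93A). SOD1-G93A is a human SOD1 with an amino acid exchange that causes familial amyotrophic lateral sclerosis (ALS), here the "low copy" mouse line with slow disease, and Plekhg5 encodes a guanine exchange factor that acts in autophagy of synaptic vesicles in motoneurons.

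Mural cells are of 2 main kinds. Pericytes sit on capillaries inside the vessel's basement membrane, and in the brain and spinal cord they help to maintain the blood-spinal cord barrier. Smooth muscle cells surround arterioles and veins and set vessel width through a contractile apparatus of actin, myosin and associated proteins. Both kinds depend on PDGF-B from endothelial cells, which acts on the receptor PDGFRB, and on Notch signals through NOTCH3. Vascular fibroblasts also carry Pdgfrb, and desmin is abundant in skeletal muscle too, so that no single gene of the 10 stands for 1 cell type.

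The libraries held 30415643 to 38743628 counts on genes. Plekhg5 lay at 22.9 ± 3.08 CPM (counts scaled to a common library size by TMM, SD, n = 3) in Plekhg5+/+ mice and at 22.4 ± 2.19 in Plekhg5+/+ SOD1-G93A mice, against 3.98 ± 0.712 and 4.26 ± 0.413 in the genotypes without Plekhg5. Human SOD1 was high in the SOD1-G93A genotypes alone, so the labels held for both alleles. Transcripts of Y-linked genes were found in 3 libraries of Plekhg5+/+ mice, 2 of Plekhg5-/- mice, 2 of Plekhg5+/+ SOD1-G93A mice and 1 of Plekhg5-/- SOD1-G93A mice, and sex was not balanced between the genotypes. The p-values below measure the spread between these mice.

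Per length of transcript, 2 pericyte genes were the most abundant of the 10. Over all 12 libraries Vtn (vitronectin, an adhesive protein that pericytes secrete) averaged 33.8 RPKM (CPM per kilobase of exon) and Rgs5 (a regulator of G protein signaling) 23.3 RPKM. Tagln followed at 5.58 RPKM, Pdgfrb at 3.26 and Notch3 at 2.69. Acta2 had 1.63 RPKM and Higd1b 1.03, while Anpep at 0.85, Des at 0.79 and Myh11 at 0.73 were the lowest. The counts behind these levels ran from 36 for Des to 4314 for Rgs5 in a single library. Des varied most between libraries, its highest value being 5.07 times its lowest, and Higd1b least, at 1.56 times on only 42 to 68 counts. None of the 10 was listed at 0 in any genotype.

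**Figure D1:**
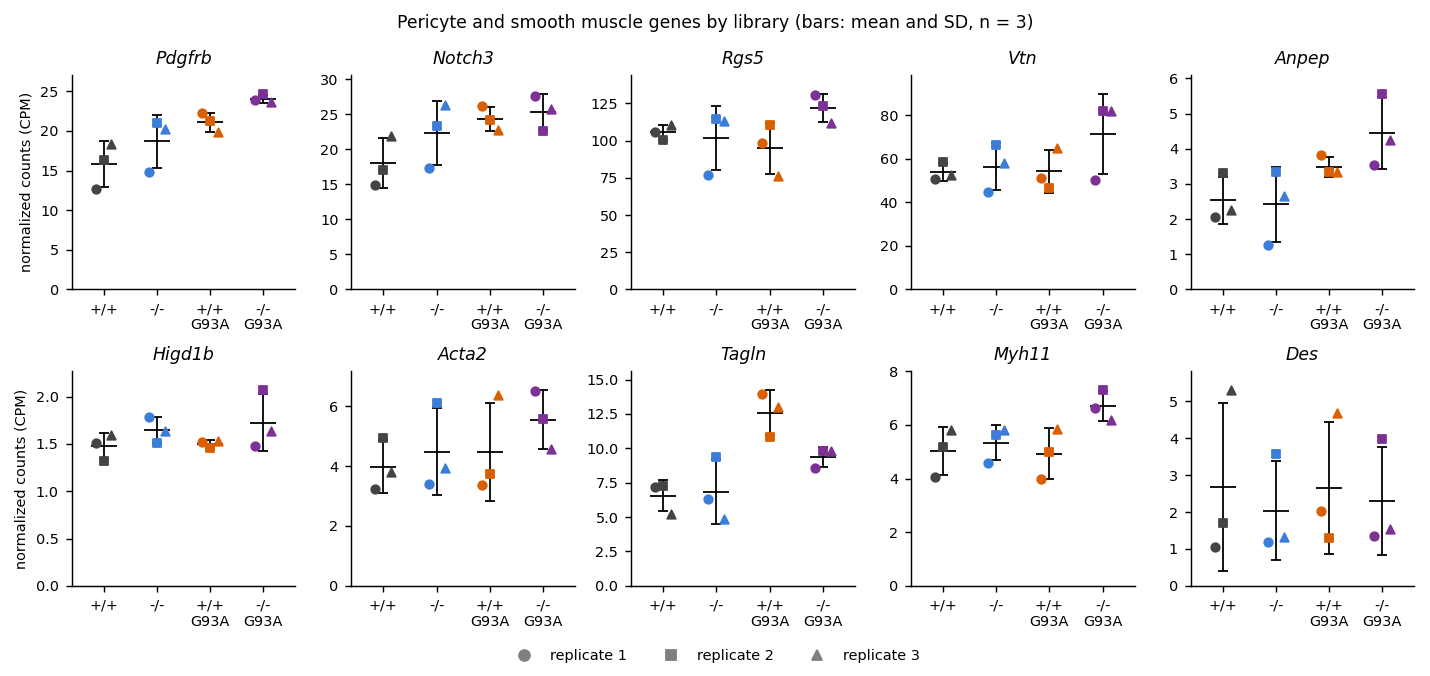
Normalized counts of the 10 genes (y axis, CPM) in the 12 libraries, by genotype (x axis; G93A marks the SOD1-G93A genotypes). Points are single mice with 1 symbol per replicate number, and bars give the mean and SD of 3; Tagln in Plekhg5+/+ SOD1-G93A mice, at 10.8 to 13.9 CPM, lay above all other libraries.

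The first question was how the SOD1-G93A transgene bore on mural genes when Plekhg5 was intact. Of the 10 genes, 1 passed the threshold of 0.05 on the adjusted p of edgeR's quasi-likelihood test, Tagln, and it was higher; over all 20155 genes tested, 2.09% were called higher and 2.47% in either direction. Tagln (chr9:45929628-45936058 in GRCm38.p6, minus strand) encodes transgelin, an actin-binding protein of smooth muscle that fibroblasts and other cells can also make. It measured 7.22, 7.24 and 5.24 CPM in Plekhg5+/+ mice and 13.9, 10.8 and 13.0 CPM in Plekhg5+/+ SOD1-G93A mice, and the groups did not overlap. The rise was 1.92-fold (log2 fold change 0.94, SE 0.204, adjusted p = 0.034). The adjusted p depended on single libraries: without 1 library it ran from 0.0234 to 0.12 with a log2 fold change of 0.79 to 1.02, and it was above the threshold without any 1 of the Plekhg5+/+ libraries (0.0866, 0.11 and 0.0858 for replicates 1, 2 and 3), without Plekhg5+/+ SOD1-G93A replicate 1 (0.12) or 3 (0.0588), or without Plekhg5-/- SOD1-G93A replicate 2 (0.0546) or 3 (0.0515). With the 2 genotypes alone in the fit it was 0.0758.

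Acta2 and Myh11 did not pass the test. Acta2 (smooth muscle α-actin; chr19:34240336-34255585) was at 3.22, 4.94 and 3.80 CPM in Plekhg5+/+ mice and at 3.35, 3.73 and 6.36 CPM in Plekhg5+/+ SOD1-G93A mice. The groups overlapped, with a log2 fold change of 0.17 (SE 0.274, adjusted p = 0.793 by edgeR) whose interval of 2 SE, from -0.38 to 0.72, holds an increase as well as a decrease. Myh11, the smooth muscle myosin heavy chain, measured 4.06, 5.19 and 5.82 CPM against 3.98, 4.98 and 5.85 CPM (log2 fold change -0.02, SE 0.167). Other cell types differed between the same libraries. The 12 genes of the microglia and macrophage list summed to 247 to 258 CPM in Plekhg5+/+ and to 409 to 684 CPM in Plekhg5+/+ SOD1-G93A mice. Of these 12, 8 were called higher, where 2.09% of all genes were. The 5 genes of the haemoglobin list, which also holds the red cell gene Alas2, summed to 698 to 1228 CPM and to 955 to 2071 CPM. None of them was called. The part of either list in the Tagln result was not tested.

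The 2 receptors were higher in every Plekhg5+/+ SOD1-G93A library than in any Plekhg5+/+ library, but neither passed the threshold. Pdgfrb (chr18:61045127-61085067) was at 12.6, 16.4 and 18.4 CPM in Plekhg5+/+ mice and at 22.2, 21.2 and 19.9 CPM with the transgene, a log2 fold change of 0.42 (SE 0.139, adjusted p = 0.133 by edgeR). Notch3 measured 14.96, 17.1 and 21.9 CPM against 26.2, 24.1 and 22.8 CPM, a log2 fold change of 0.44 (SE 0.157, adjusted p = 0.157 by edgeR). Anpep, the surface aminopeptidase known as CD13, also had separate groups, at 2.06, 3.30 and 2.27 CPM against 3.82, 3.33 and 3.33 CPM (log2 fold change 0.46, SE 0.294). Together with Tagln, 4 of the 10 genes had separate groups, all higher, where 11.6% of all genes tested did.

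The abundant pericyte genes overlapped between these genotypes. Rgs5 was at 106, 100 and 111 CPM in Plekhg5+/+ mice and at 98.1, 110 and 76.5 CPM in Plekhg5+/+ SOD1-G93A mice (log2 fold change -0.15, SE 0.15). Vtn lay at 50.8, 58.5 and 52.7 CPM against 51.0, 46.5 and 65.1 CPM, and Higd1b, a mitochondrial protein gene used as a pericyte marker, at 1.32 to 1.59 CPM against 1.45 to 1.53 CPM. Of the 10 log2 fold changes 7 were above 0, with a median of 0.10, where 49.7% of all genes were above 0; 3 genes (Tagln, Pdgfrb and Notch3) had an unadjusted p under 0.05 and were higher, against 10.6% of all genes. In bulk tissue, fewer cells of a type and less RNA per cell cannot be told apart for any of these genes.

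**Figure D2:**
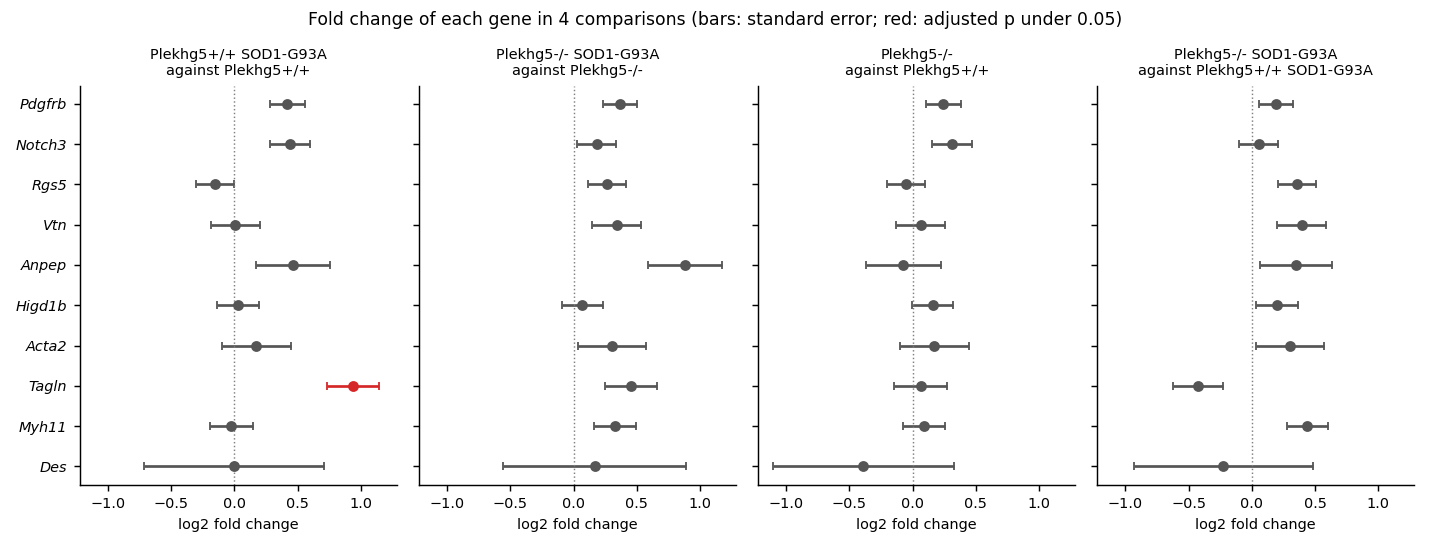
Log2 fold change (x axis) of each of the 10 genes (y axis) in 4 comparisons between 2 genotypes; bars give the standard error. Red marks an adjusted p under 0.05 in edgeR's test, reached by Tagln in Plekhg5+/+ SOD1-G93A against Plekhg5+/+ mice at 0.94.

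The second question was whether the transgene had the same relation to these genes in mice without Plekhg5. None of the 10 was called in Plekhg5-/- SOD1-G93A against Plekhg5-/- mice by edgeR or by either DESeq2 fit (0.00496% of all genes were called by edgeR), while 3 had an unadjusted p under 0.05, all higher, against 3.27% of all genes. These 3 were Anpep, Pdgfrb and Tagln. Anpep measured 1.26, 3.34 and 2.65 CPM in Plekhg5-/- mice and 3.55, 5.56 and 4.25 CPM in Plekhg5-/- SOD1-G93A mice, with no overlap (log2 fold change 0.88, SE 0.291, adjusted p = 0.734 by edgeR). Pdgfrb lay at 14.8, 21.0 and 20.3 CPM against 23.9, 24.7 and 23.7 CPM, again without overlap (log2 fold change 0.37, SE 0.138). Tagln lay at 6.32, 9.40 and 4.83 CPM against 8.54, 9.81 and 9.79 CPM, where Plekhg5-/- replicate 2 fell within the range of the transgenic mice (log2 fold change 0.45, SE 0.204, adjusted p = 0.911 by edgeR). With Myh11, 3 of 10 genes had separate groups, all higher, against 7.25% of all genes. All 10 log2 fold changes were above 0, with a median of 0.32, where 48.3% of all genes were above 0. This was not particular to mural genes. In the same comparison 14 of 15 endothelial genes lay above 0 (median 0.31). So did 11 of 12 fibroblast and meningeal genes (0.86), 7 of 7 Schwann cell genes (1.13) and 10 of 12 microglia and macrophage genes (0.29). Of 11 skeletal muscle genes, 8 lay below 0 (median -0.61).

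The difference between the 2 effects of the transgene was tested as an interaction. No gene of the 10, and no gene of all those tested (0%), was called by edgeR. The interaction was -0.49 for Tagln (SE 0.287, adjusted p = 0.608 by edgeR), and 0.41 for Rgs5 (SE 0.213, adjusted p = 0.575 by edgeR), which had the smallest p of the 10. None of the 10 had an unadjusted p under 0.05, against 9.05% of all genes, and both DESeq2 fits called none either. The lower Tagln effect in Plekhg5-/- mice was thus not shown to differ from that in Plekhg5+/+ mice.

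Averaged over both Plekhg5 genotypes, Tagln alone was called by edgeR among the 10, where 1.22% of all genes were. The transgene went with a 1.62-fold higher Tagln level (log2 fold change 0.70, SE 0.144, adjusted p = 0.0401 by edgeR), although the 6 libraries with and the 6 without it overlapped. With the Y-linked transcripts as a covariate the adjusted p was 0.0511. Without 1 library it ran from 0.0223 to 0.0944, above the threshold in 9 of 12 cases: without Plekhg5+/+ replicate 1, 2 or 3, Plekhg5-/- replicate 1 or 3, Plekhg5+/+ SOD1-G93A replicate 1, or Plekhg5-/- SOD1-G93A replicate 1, 2 or 3. Pdgfrb missed the threshold at a log2 fold change of 0.39 (SE 0.0981, adjusted p = 0.0734 by edgeR) and passed it in DESeq2 (adjusted p = 0.0104). Anpep had a log2 fold change of 0.67 (SE 0.207, adjusted p = 0.136 by edgeR) and Notch3 one of 0.31 (SE 0.11, adjusted p = 0.195 by edgeR). Those 4 genes had an unadjusted p under 0.05, against 9.39% of all genes that did so and were higher.

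The third question was the effect of Plekhg5 loss. Without the transgene, none of the 10 genes was called in Plekhg5-/- against Plekhg5+/+ mice by edgeR (0.0298% of all genes were) or by DESeq2, none had an unadjusted p under 0.05 (5.32% of all genes did), and none had separate groups (4.72% of all genes did with Plekhg5-/- mice higher and 3.99% with them lower). The largest difference by p was that of Notch3, at 17.3, 23.3 and 26.3 CPM in Plekhg5-/- mice (log2 fold change 0.31, SE 0.157, adjusted p = 0.948 by edgeR). Plekhg5-/- replicate 1 was the lowest of its genotype in 8 of the 10 genes and replicate 2 the highest in 7. Plekhg5+/+ replicate 1 was likewise the lowest of its genotype in 7 of 10 genes.

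Within the transgenic mice, again none of the 10 was called by edgeR in Plekhg5-/- SOD1-G93A against Plekhg5+/+ SOD1-G93A mice (0.0347% of all genes were) or by DESeq2, and 2 had an unadjusted p under 0.05, both higher, against 3.59% of all genes. Myh11 measured 3.98, 4.98 and 5.85 CPM in Plekhg5+/+ SOD1-G93A mice and 6.63, 7.29 and 6.19 CPM in Plekhg5-/- SOD1-G93A mice (log2 fold change 0.44, SE 0.165, adjusted p = 0.517 by edgeR). Rgs5 was at 131, 123 and 112 CPM in the mice without Plekhg5 (log2 fold change 0.36, SE 0.15, adjusted p = 0.545 by edgeR). Both genes, and Pdgfrb, had no overlap between the genotypes. Tagln was the one gene of the 10 with separate groups in the other direction (log2 fold change -0.42, SE 0.199, adjusted p = 0.577 by edgeR). Among all genes tested 9.48% had separate groups and were higher and 10% had separate groups and were lower. Averaged over both states of the transgene, Plekhg5 loss gave 0 calls among the 10 (0.0546% of all genes) in edgeR and in DESeq2, with Myh11 (log2 fold change 0.26, SE 0.117) and Pdgfrb (0.22, SE 0.098) at an unadjusted p under 0.05, both higher, against 1.91% of all genes.

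Des, the muscle intermediate filament, followed other libraries than the rest. It measured 1.04, 1.70 and 5.30 CPM in Plekhg5+/+ mice, 1.20, 3.59 and 1.33 CPM in Plekhg5-/- mice, 2.02, 1.29 and 4.68 CPM in Plekhg5+/+ SOD1-G93A mice and 1.36, 3.98 and 1.55 CPM in Plekhg5-/- SOD1-G93A mice. Thus 1 library of each genotype was high, at 3.59 to 5.30 CPM against 1.04 to 2.02 CPM in the other 8. The same 4 libraries had high transcripts of skeletal muscle, a tissue that lies beside the cord: the 11 genes of that list summed to 48.1 to 190.3 CPM there and to 4.52 to 11.2 CPM in the other 8. Ckm, the muscle creatine kinase, was at 5.77 to 26.1 CPM against 0.116 to 0.883 CPM. No comparison between genotypes gave a difference in Des beyond this spread, with standard errors of 0.709 to 0.721 on the log2 scale between 2 genotypes. Des was not alone in peaking in these 4 libraries. Plekhg5+/+ replicate 3 was the highest of its genotype in 6 of the 10 genes and Plekhg5-/- replicate 2 in 7. Plekhg5+/+ SOD1-G93A replicate 3 was so in 5 and Plekhg5-/- SOD1-G93A replicate 2 in 6, each count with Des. The cause was not tested.

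**Figure D3:**
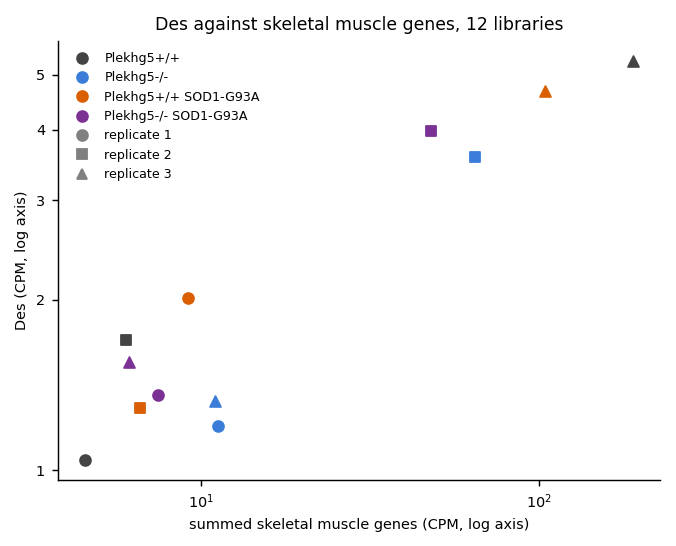
Des (y axis, CPM, log axis) against the summed level of 11 skeletal muscle genes (x axis, CPM, log axis) in the 12 libraries, with color for genotype and symbol for replicate number. The 4 libraries at the upper right, 1 of each genotype, have 48.1 CPM or more of the skeletal muscle genes and 3.59 CPM or more of Des.

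Without these 4 libraries, Tagln kept a log2 fold change of 0.77 in Plekhg5+/+ SOD1-G93A against Plekhg5+/+ mice (adjusted p = 0.0976 by edgeR) and of 0.74 averaged over both Plekhg5 genotypes (adjusted p = 0.0949), so that neither call held with 8 libraries. Acta2 went from a log2 fold change of 0.17 to one of -0.21 in the first of these comparisons, passing the test in neither. Of the 4 muscle libraries, Plekhg5-/- replicate 2 (6.12 CPM) and Plekhg5+/+ SOD1-G93A replicate 3 (6.36 CPM) were the highest of their genotypes in Acta2, while Plekhg5+/+ replicate 3 (3.80 CPM), with the most muscle RNA, and Plekhg5-/- SOD1-G93A replicate 2 (5.59 CPM) were not. The highest Acta2 level of all, 6.51 CPM, was in Plekhg5-/- SOD1-G93A replicate 1, which is no muscle library. Pdgfrb and Notch3 had log2 fold changes of 0.57 and 0.64 there.

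To set the genes against each other within a library, 4 ratios were formed after the values above had been seen. They are given as a description. A permutation test of them was run, but its p-values are left out because the ratios were picked from these same values. The ratio of Tagln to Acta2 was 1.70 ± 0.476 in Plekhg5+/+, 1.54 ± 0.319 in Plekhg5-/-, 3.03 ± 1.06 in Plekhg5+/+ SOD1-G93A and 1.74 ± 0.418 in Plekhg5-/- SOD1-G93A mice (SD, n = 3). The Plekhg5+/+ SOD1-G93A libraries, at 4.16, 2.89 and 2.05, overlapped with Plekhg5+/+ replicate 1 at 2.24 and Plekhg5-/- SOD1-G93A replicate 3 at 2.15. Averaged over both Plekhg5 genotypes, the log2 ratio with the transgene minus that without was 0.49 for Tagln to Acta2 and 0.57 for Tagln to Myh11. The ratio of Pdgfrb to Rgs5 was 0.12, 0.163 and 0.166 in Plekhg5+/+ mice, 0.193, 0.183 and 0.178 in Plekhg5-/- mice, 0.226, 0.192 and 0.26 in Plekhg5+/+ SOD1-G93A mice and 0.183, 0.2 and 0.212 in Plekhg5-/- SOD1-G93A mice. The Plekhg5+/+ mice were the lowest in this ratio, and the other genotypes overlapped. The averaged difference was 0.35 on the log2 scale for Pdgfrb to Rgs5 and 0.27 for Notch3 to Rgs5.

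**Figure D4:**
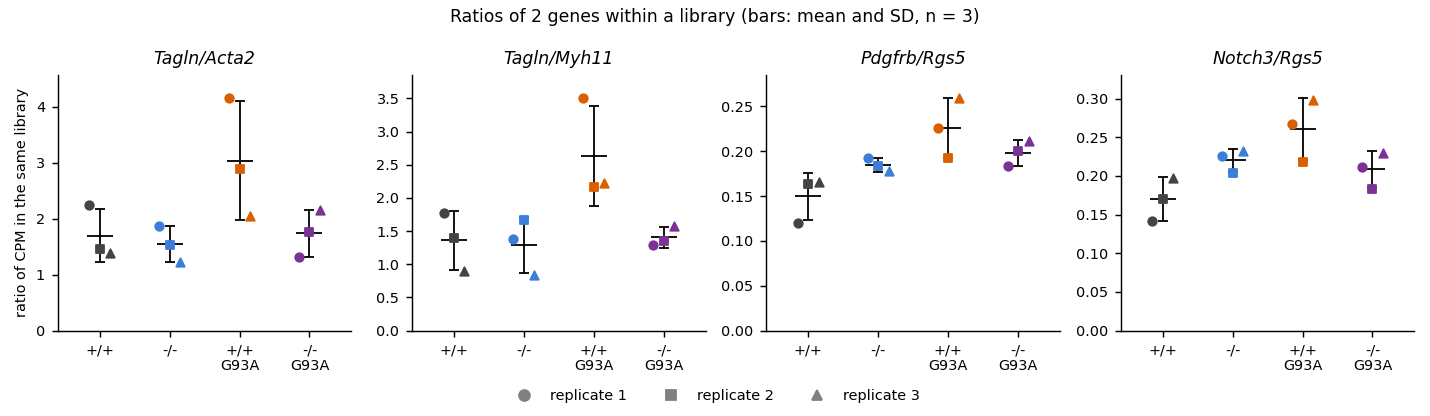
Ratio of the CPM of 2 genes in the same library (y axis) by genotype (x axis), with points for single mice and bars for mean and SD of 3. Pdgfrb/Rgs5 was lowest in Plekhg5+/+ mice, at 0.12 to 0.166, and Tagln/Acta2 had its highest mean in Plekhg5+/+ SOD1-G93A mice, at 2.05 to 4.16, a range that reaches below Plekhg5+/+ replicate 1 (2.24) and Plekhg5-/- SOD1-G93A replicate 3 (2.15).

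Contractile genes of smooth muscle are known targets of serum response factor, which binds the CArG box (CC, then 6 letters each A or T, then GG, a pattern that reads alike on both strands). RefSeq sequences of GRCm38.p6 from 250 bases before to 50 after the start were at hand for 6 of the 10 genes, Rgs5, Vtn, Acta2, Anpep, Notch3 and Des; those of Pdgfrb, Tagln, Myh11 and Higd1b were not used here. No full CArG box was found in the 250 bases before the start of these 6, and Acta2 alone held boxes with 1 G or C in the middle, at 84 and 34 bases before the start in that RefSeq table, which is position 34255373 of chromosome 19. The span of Acta2 in the count table ends further upstream, at 34255585, so both boxes lie inside that span. Both are shown with 10 bases on either side and the box in capitals, because they are the sequence feature that sets Acta2 apart among the 6:
Acta2 at -84, minus strand, chr19:34255438-34255467: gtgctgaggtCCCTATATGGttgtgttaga
Acta2 at -34, minus strand, chr19:34255388-34255417: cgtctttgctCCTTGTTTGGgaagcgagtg
Of 27025 mouse genes with such a sequence, 1.62% held a full box and 9.78% a box with at most 1 such exchange. These matches are letters in a window, with no measurement of binding.

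Further genes were read from lists named for the 2 cell types and their signals. Other cells of the whole cord can make listed genes too, and the cell source of none was measured. Of 18 other pericyte genes, 0 were called in any of the 7 comparisons. In Plekhg5+/+ SOD1-G93A against Plekhg5+/+ mice the smallest p among them belonged to Pth1r (log2 fold change 0.28, SE 0.106, adjusted p = 0.178 by edgeR) and Cspg4, the proteoglycan NG2 (0.28, SE 0.118, adjusted p = 0.233). Averaged over both Plekhg5 genotypes, 18 of 18 lay above 0 with the transgene, with a median of 0.14 (47.7% of all genes lay above 0), and 5 had an unadjusted p under 0.05 and were higher, against 9.39% of all genes. The counts within each Plekhg5 genotype are given next. In Plekhg5+/+ mice 12 of 18 lay above 0 with the transgene (median 0.04, 49.7% of all genes). In Plekhg5-/- mice 16 of 18 did (median 0.25, 48.3% of all genes). The interaction was called for 0 of the 18, and 2 had an unadjusted p under 0.05, against 9.05% of all genes. A difference between the Plekhg5 genotypes was thus not shown.

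Of 17 other smooth muscle genes 16 were tested, and Actg2 (at most 10 counts) was not. In Plekhg5+/+ SOD1-G93A against Plekhg5+/+ mice 1 was called higher and 1 lower by edgeR. The share called over all genes tested was 2.47% in either direction. Mylk, the kinase of myosin light chains, rose from 10.95, 12.6 and 13.1 CPM to 15.5, 17.96 and 29.5 CPM, each from lowest to highest (log2 fold change 0.78, SE 0.187, adjusted p = 0.0491 by edgeR). The 29.5 CPM were in Plekhg5+/+ SOD1-G93A replicate 1, without which the log2 fold change was 0.46 and the adjusted p 0.0887. Tinagl1, a matrix protein of vessel walls, fell from 7.07, 11.6 and 11.7 CPM to 5.48, 5.96 and 6.21 CPM (log2 fold change -0.78, SE 0.183, adjusted p = 0.0457 by edgeR). Over alternatives the adjusted p ran from 0.0026 to 0.198 for Mylk and from 0.0028 to 0.188 for Tinagl1, and both were highest without Plekhg5+/+ replicate 2. With 1 library left out, Mylk stayed under the threshold only without Plekhg5+/+ SOD1-G93A replicate 2 or 3, and Tinagl1 only without Plekhg5+/+ replicate 3, Plekhg5-/- replicate 1 or Plekhg5-/- SOD1-G93A replicate 3. Tinagl1 was also lower in Plekhg5-/- than in Plekhg5+/+ mice (log2 fold change -0.50, SE 0.18). It was higher in Plekhg5-/- SOD1-G93A than in Plekhg5+/+ SOD1-G93A mice (0.57, SE 0.183). Neither was called. Its interaction was 1.07 (SE 0.257, adjusted p = 0.338 by edgeR).

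Of 8 transcription factors and cofactors of smooth muscle genes 7 were tested, and Myocd (myocardin, at most 11 counts) was not. None was called in any comparison; in Plekhg5+/+ SOD1-G93A against Plekhg5+/+ mice Tead3 had a log2 fold change of 0.54 (SE 0.157, adjusted p = 0.0914 by edgeR) and Mef2c one of 0.31 (SE 0.0988, adjusted p = 0.123). Of 22 genes of PDGF, Notch and angiopoietin signaling 1 was called there, and it was lower. Over all genes tested, 2.47% were called in either direction. Angpt2, the angiopoietin that endothelial cells release and that can loosen pericytes from vessels, fell from 1.75, 2.26 and 2.27 CPM to 0.93, 1.09 and 1.35 CPM (log2 fold change -0.90, SE 0.181, adjusted p = 0.0257 by edgeR). The adjusted p was above the threshold without Plekhg5+/+ replicate 1 (0.0868) or 2 (0.119) or without Plekhg5+/+ SOD1-G93A replicate 1 (0.0855) or 3 (0.059). The call held in 8 of 12 fits without 1 library and in 16 of all 22 alternatives, so other settings changed it too.

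The other cell types of the vessel wall and its surroundings give the setting. The summed level of the 10 genes was 203 to 228 CPM in Plekhg5+/+, 172 to 255 in Plekhg5-/-, 219 to 228 in Plekhg5+/+ SOD1-G93A and 260 to 286 CPM in Plekhg5-/- SOD1-G93A mice. By this sum, to which Rgs5 and Vtn give the most, the 3 libraries of the last genotype were the highest of all 12. With each gene weighted alike, as the mean over the 10 genes of the log2 ratio to the Plekhg5+/+ level, they were not: Plekhg5-/- SOD1-G93A replicates 1, 2 and 3 lay at 0.29, 0.60 and 0.34, beside 0.40 in Plekhg5+/+ SOD1-G93A replicate 3 and 0.38 in Plekhg5-/- replicate 2. The sum of 15 endothelial genes was also highest there, at 365 to 437 CPM against 279 to 363 CPM over the other genotypes. The 12 fibroblast and meningeal genes summed to 347 to 491 CPM there and to 206 to 343 CPM elsewhere, but with each gene weighted alike Plekhg5-/- SOD1-G93A replicate 1 (0.15) lay below Plekhg5-/- replicate 2 (0.48), Plekhg5+/+ SOD1-G93A replicate 3 (0.38) and Plekhg5+/+ replicate 2 (0.37). The 7 Schwann cell genes, whose cells belong to nerve roots and not to the cord itself, summed to 537 to 743 CPM there, to 257 to 556 CPM in Plekhg5+/+, to 264 to 320 CPM in Plekhg5-/- and to 269 to 411 CPM in Plekhg5+/+ SOD1-G93A mice. No gene of these 3 lists was at 0 in any genotype. Their part in the values of the 10 genes was not tested.

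**Figure D5:**
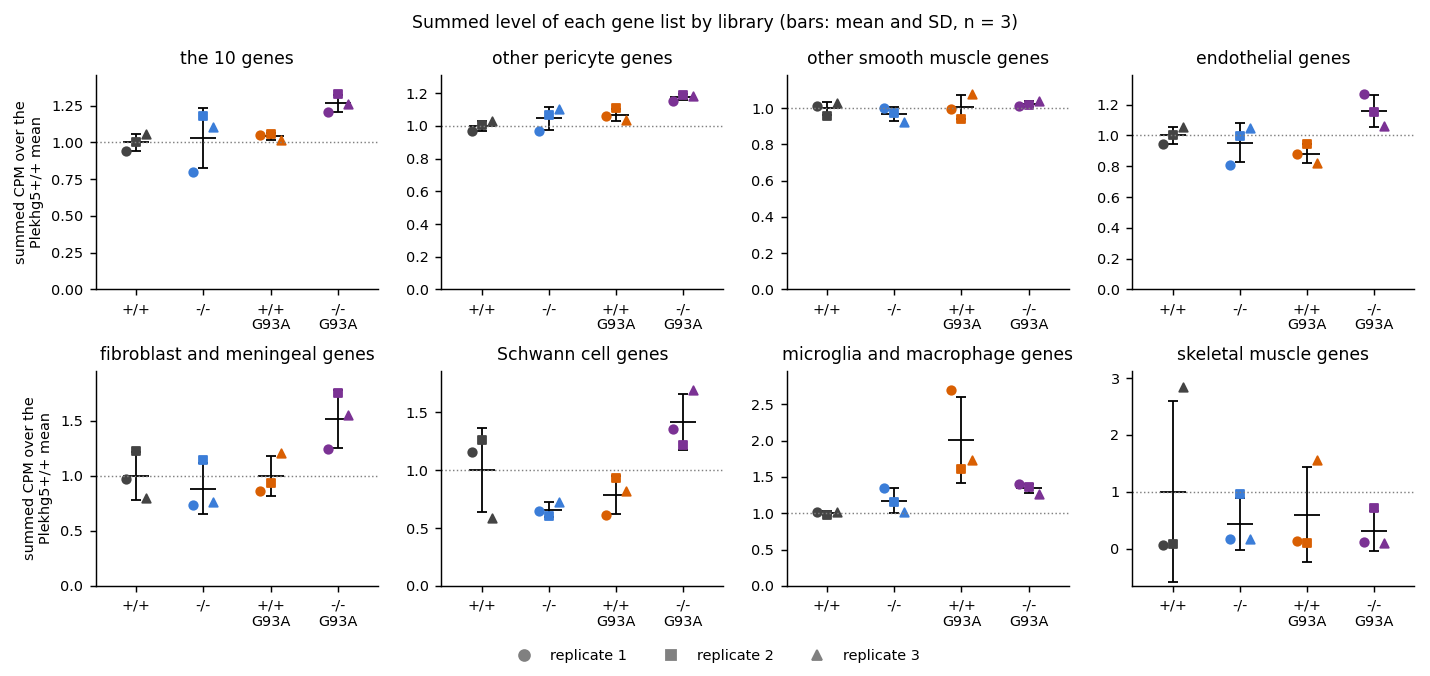
Summed CPM of 8 gene lists by library, divided by the mean of Plekhg5+/+ mice (y axis), against genotype (x axis), with points for single mice and bars for mean and SD of 3; the dotted line marks 1. In Plekhg5-/- SOD1-G93A mice the 10 genes (260 to 286 CPM), the endothelial genes (365 to 437 CPM) and the fibroblast and meningeal genes (347 to 491 CPM) all lay above the Plekhg5+/+ mean.

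In Plekhg5-/- SOD1-G93A against Plekhg5+/+ SOD1-G93A mice 15 of 15 endothelial genes lay above 0, with a median log2 fold change of 0.47, and 12 of 12 fibroblast and meningeal genes, with a median of 0.64, beside 8 of 10 and 0.25 for the mural genes and 47.5% of all genes above 0; edgeR called none of the 3 lists' genes. The Schwann cell genes differed most among the lists that were higher, with 7 of 7 above 0, a median of 0.96 and 6 at an unadjusted p under 0.05, against 3.59% of all genes. Microglia and macrophage genes were mostly below 0, 9 of 12 with a median of -0.51 and 8 at an unadjusted p under 0.05. So were 5 of 5 genes of the haemoglobin list, with a median of -0.91 and all 5 at an unadjusted p under 0.05. Of all genes, 5.05% were lower at that level. None of either list was called. Col1a1, a fibrillar collagen of fibroblasts, rose with the transgene averaged over both Plekhg5 genotypes (log2 fold change 0.79, SE 0.137, adjusted p = 0.0282 by edgeR). Its adjusted p was between 0.0518 and 0.083 without Plekhg5+/+ replicate 1, 2 or 3, Plekhg5-/- replicate 3, or Plekhg5-/- SOD1-G93A replicate 1 or 2, and 0.0887 without the 4 muscle libraries. Col1a1 measured 12.1, 14.8 and 17.6 CPM in Plekhg5+/+ and 32.2, 33.4 and 37.1 CPM in Plekhg5-/- SOD1-G93A mice, which differ in both alleles. Within a Plekhg5 genotype it was not called with the transgene. The log2 fold change was 0.43 in Plekhg5+/+ mice (SE 0.195, adjusted p = 0.272 by edgeR). In Plekhg5-/- mice it was 1.15 (SE 0.193, adjusted p = 0.214 by edgeR). Ly6c1, an endothelial surface antigen, fell in Plekhg5+/+ SOD1-G93A against Plekhg5+/+ mice (log2 fold change -0.56, SE 0.122, adjusted p = 0.0361 by edgeR). Its adjusted p was 0.196 without the 4 muscle libraries, and between 0.0563 and 0.128 without Plekhg5+/+ replicate 1, 2 or 3, Plekhg5+/+ SOD1-G93A replicate 1 or 3, or Plekhg5-/- SOD1-G93A replicate 2.

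Across the 12 libraries the 10 genes did not form 1 pattern. Described by Pearson's r of log2 CPM over these libraries, which share the genotype differences and the tissue cut, Pdgfrb ran with Notch3 (r = 0.91, Spearman's rho = 0.72) and Anpep (r = 0.80, rho = 0.93). Acta2 ran with Myh11 (r = 0.75, rho = 0.79) and less with Tagln (r = 0.31, rho = 0.18). Outside the 10, the genes most like Pdgfrb were Tshz2 (r = 0.97), Tpbgl (0.95) and Tshz3 (0.94), and those most like Acta2 were Marveld1 (0.90), Bmx (0.87) and Gtpbp1 (0.84), each picked as the highest of all genes tested.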

How the data were processed

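Per the labels, total RNA of spinal cord (RNeasy Lipid Tissue Mini Kit) went into poly(A) libraries of the TruSeq Stranded mRNA kit with 12 cycles of PCR. Per the methods of the study and the submitters' processing notes, the authors trimmed reads with Cutadapt 2.4, aligned them with STAR 2.7.2b to GRCm38.p6 with human SOD1 added, and counted them per gene with featureCounts 1.6.4 by strand. Reads with several hits or overlapping genes were shared out as fractions, so the deposited values are expected counts, not whole for 8 of the 10 genes in at least 1 library; they were rounded here. Strand-aware counting keeps antisense genes apart.

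The main test was the quasi-likelihood test of edgeR 4.0.16 in R 4.3.3 with TMM scaling, filterByExpr (20155 of 45906 genes), 1 fit over 4 genotypes and Benjamini-Hochberg adjustment over all genes tested at 0.05. SE is the log2 fold change divided by the root of F. CPM and RPKM were computed from the counts with TMM library sizes and, for RPKM, the exon lengths in the table. Alternatives were DESeq2 1.42.0 without and with a prior, its size factors, other filters, a threshold of 0.1, the compared genotypes alone, a replicate block, a Y-linked covariate and each library left out. Added after seeing the data were the 4 ratios, given without the p-values of their permutation test, and a fit without the 4 libraries with over 40 CPM of skeletal muscle genes. The test was run on counts simulated from edgeR's own estimates of the spread, with changes planted in 1 genotype. That simulation held no differences in muscle, nerve root or sex, so it does not measure how far the calls above hold. Replicates were separate libraries, with chi-square values per degree of freedom of 5.67 to 27.4 between libraries of 1 genotype. Counting error alone sets a limit at low counts (36 to 183 for Des and Anpep, 42 to 68 for Higd1b).

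The 10 genes and all lists were chosen with earlier results of these data known. Of the 10 genes all were named in the text; of each list, the genes called or, where none was called, those with the smallest p, of which the text gives a part; and the 3 genes most like Pdgfrb and Acta2.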

Additional observations from a re-analysis of the deposited data

Results flagged for a closer look

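Of the 10 genes and the 5 others that edgeR called from the mural, signaling, endothelial and fibroblast lists, Angpt2 and Ly6c1 stood out because the transgene went with opposite directions in the Plekhg5 genotypes, in every library. Both had been called in Plekhg5+/+ SOD1-G93A against Plekhg5+/+ mice, and that comparison is a part of the interaction. The interaction values below are thus not independent of the way the 2 genes were picked. Angpt2 was at 1.75, 2.26 and 2.27 CPM in Plekhg5+/+, 1.08, 1.29 and 1.33 in Plekhg5-/-, 0.93, 1.09 and 1.35 in Plekhg5+/+ SOD1-G93A and 2.10, 2.19 and 2.41 in Plekhg5-/- SOD1-G93A mice, each from lowest to highest. Its interaction was 1.75 on the log2 scale (SE 0.254, adjusted p = 0.235 by edgeR, adjusted p = 0.00083 by DESeq2 without a prior). Ly6c1 ranged from 31.0 to 32.9 CPM in Plekhg5+/+, 19.2 to 23.1 in Plekhg5-/-, 21.4 to 22.3 in Plekhg5+/+ SOD1-G93A and 23.6 to 35.5 CPM in Plekhg5-/- SOD1-G93A mice, with an interaction of 1.11 (SE 0.173, adjusted p = 0.235 by edgeR, adjusted p = 4.08e-05 by DESeq2 without a prior). Over the alternatives the adjusted p of the interaction ran from 0.00073 to 0.8 for Angpt2 and from 3.93e-05 to 0.8 for Ly6c1. They were not alone in this: among the endothelial genes that were not called, Sox18 (interaction 1.15, SE 0.227, adjusted p = 0.338 by edgeR) and Cdh5 (0.75, SE 0.213, adjusted p = 0.39 by edgeR) also separated this way in every library. Tinagl1, of the other smooth muscle genes, had an interaction of 1.07 (SE 0.257, adjusted p = 0.338 by edgeR). Its Plekhg5-/- libraries (up to 7.65 CPM) overlapped with those of Plekhg5-/- SOD1-G93A mice (from 6.94 CPM). The interaction was above 0 for 14 of 15 endothelial genes, 6 of them at an unadjusted p under 0.05, and for 7 of 7 Schwann cell genes, with a median of 1.56 and 6 at an unadjusted p under 0.05, against 9.05% of all genes in either direction.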

How the results depend on the processing

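None of the 10 genes changed direction while called. The count of called genes in Plekhg5+/+ SOD1-G93A against Plekhg5+/+ mice, 1, was 0 with the 2 genotypes alone and 0 without the 4 libraries with skeletal muscle RNA, and it ran from 0 to 1 without single libraries. For the transgene averaged over both Plekhg5 genotypes the count of 1 was 2 in DESeq2 without a prior, 3 in DESeq2 with one, 2 at an adjusted p under 0.1, 0 with the Y-linked covariate, 0 without the 4 muscle libraries and 0 to 1 without single libraries. DESeq2 added Pdgfrb, and with the prior Anpep (adjusted p = 0.0489). The counts of 0 in the other 5 comparisons stayed at 0 under every alternative run. Over all genes the transgene averaged over both Plekhg5 genotypes gave 245 calls in edgeR, 811 and 821 in DESeq2 without and with a prior, 733 at 0.1, 412 with the Y-linked covariate and 5 without the 4 muscle libraries. In Plekhg5+/+ SOD1-G93A against Plekhg5+/+ mice edgeR gave 498, DESeq2 1159 and 1190, the threshold of 0.1 1145, the fit without the muscle libraries 124, and that with the 2 genotypes alone 3.

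The labels name no pairing of mice by replicate number. Of 18 pairs with the same number in 2 genotypes, 5 had deviations that correlated above 0.1 (median 0.01). Among 36 pairs with different numbers, 9 did (median -0.03). With 3 mice per genotype these values cannot exclude a pairing. With the replicate block the averaged count was 2, adding Pdgfrb (adjusted p = 0.0479), with 417 calls over all genes.

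Without single libraries the averaged difference of the log2 ratio was 0.36 to 0.62 for Tagln to Acta2, 0.43 to 0.69 for Tagln to Myh11, 0.27 to 0.41 for Pdgfrb to Rgs5 and 0.21 to 0.33 for Notch3 to Rgs5.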
